A study of Mus musculus with 16 samples.

Results

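The 26S proteasome is the protease that destroys ubiquitin-tagged proteins, and the genes of its subunits, activators, inhibitor and assembly chaperones were followed here across resident macrophages of Bhlhe40-sufficient and Bhlhe40-deficient mice. Bhlhe40 is a transcription factor that represses genes by binding E-boxes. Members were all genes whose symbol starts with Psm, a letter from a to g and a digit, and that a probe set of a single gene symbol reads. Of 19938 genes, 50 matched. Psmc3ip, a cofactor of meiotic recombination, and Psme3ip1, a protein that binds an activator, match by their letters alone and are counted apart, which leaves 48 proteasome genes. Of these, 47 were tested because their signal was above the array's median on 2 or more arrays. The exception was Psmb11, the catalytic subunit of the thymus, whose log2 signal lay between 3.80 and 4.82.

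Levels are deposited log2 signals of 16 one-colour Affymetrix arrays, 1 per RNA sample, from sorted macrophages of male C57BL/6 mice. Alveolar macrophages (AM) from digested lung of untreated mice gave 2 arrays of Bhlhe40+/+ (WT) and 2 of Bhlhe40-/- (KO) animals. Large peritoneal macrophages (LPM) from lavage of untreated mice gave 3 WT and 3 KO arrays. Mice injected with IL-4c, which drives alternative activation of macrophages, on days 0 and 2 and killed on day 4 gave LPM on 2 WT, 2 KO and 2 LysM arrays; LysM stands for LysM-Cre+ Bhlhe40fl/fl, in which Cre is expressed from the lysozyme M locus of myeloid cells. The deletion is thus germline in KO and limited to cells that expressed LysM-Cre in LysM mice. Whether each array stands for its own mouse or for pooled mice is not in the labels, so the p-values reflect only how far the arrays of a group spread. A gene was called higher or lower where the Benjamini-Hochberg adjusted p of limma, taken over 11634 tested genes, was under 0.05. Differences are on the log2 scale and are written as the first-named group minus the other, with their standard error (SE).

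The proteolytic core, the 20S particle, is a stack of rings of alpha subunits (Psma genes), which form the gate, and beta subunits (Psmb genes), which line the chamber. Psmb5, Psmb6 and Psmb7 carry the active sites of the standard core. In immune cells and under interferon, Psmb8, Psmb9 and Psmb10 take the places of Psmb5, Psmb6 and Psmb7 in newly built particles, and this immunoproteasome favours peptides that fit MHC class I. The 19S cap holds ATPases (Psmc genes), which unfold substrates, and non-ATPase subunits (most Psmd genes), which bind and strip ubiquitin. Counts for the cap below take all 20 tested Psmc and Psmd genes. They include genes such as Psmd5 and Psmd10, which are chaperones of its base and not subunits. Psme genes encode alternative activators of the core, Psmf1 an inhibitor and Psmg genes the chaperones that build the core. Macrophages use the system for protein turnover, for the control of signalling proteins and for antigen processing.

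The exchangeable catalytic subunits differ in the sequence before their start sites. The stretches below end at the base before a start of transcription annotated in RefSeq on GRCm38.p6. They are shown because the results turn on these genes, and are read 5′ to 3′ on the gene's strand. Stretches were found for all 3 immunoproteasome genes and for Psmb5 and Psmb6. For Psmb6 the annotated gene begins at 70525324, inside the stretch, so the end of its stretch lies within the gene. Capitals mark matches to letters searched on both strands, which were the antioxidant response element core TGANNNNGC, the CCAAT box, the E-box CACGTG to which Bhlhe40 binds, the core of the interferon-stimulated response element (a pair of GAAA runs separated by any 2 bases) and the gamma-activated sequence core TTCNNNGAA. The letters do not overlap one another in these stretches.
Psmb5 (chr14:54617996-54618145, minus strand): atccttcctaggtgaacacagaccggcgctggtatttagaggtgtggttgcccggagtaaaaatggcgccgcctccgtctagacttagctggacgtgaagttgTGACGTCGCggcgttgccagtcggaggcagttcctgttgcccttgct
Psmb6 (chr11:70525207-70525356, plus strand): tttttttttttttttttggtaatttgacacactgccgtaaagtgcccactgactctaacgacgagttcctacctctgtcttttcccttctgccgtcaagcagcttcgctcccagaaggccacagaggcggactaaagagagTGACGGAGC
Psmb8 (chr17:34198045-34198194, plus strand): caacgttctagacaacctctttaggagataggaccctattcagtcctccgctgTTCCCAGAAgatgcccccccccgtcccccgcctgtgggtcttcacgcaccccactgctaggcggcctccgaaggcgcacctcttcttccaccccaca
Psmb9 (chr17:34187331-34187530, minus strand): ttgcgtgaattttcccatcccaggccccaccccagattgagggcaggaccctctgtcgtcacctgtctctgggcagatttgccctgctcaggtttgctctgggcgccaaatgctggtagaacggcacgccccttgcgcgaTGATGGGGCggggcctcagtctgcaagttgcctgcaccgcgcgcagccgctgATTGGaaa
Psmb10 (chr8:105938393-105938542, minus strand): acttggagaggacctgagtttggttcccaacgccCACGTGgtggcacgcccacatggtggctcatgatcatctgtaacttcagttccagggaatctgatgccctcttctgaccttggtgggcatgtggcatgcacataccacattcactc

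The stretches of both standard genes hold the antioxidant response element core, in which Psmb5 reads TGACGTCGC and Psmb6 TGACGGAGC. In Psmb6 these letters lie after the position at which the annotated gene begins. Psmb9 holds the same core and, next to its start, ATTGG, the CCAAT box on the other strand. Psmb8 holds the gamma-activated core, and Psmb10 holds the E-box. Over the 250 bases before the start, 16 of the 40 members with a window (40%) held TGANNNNGC, against 38.7% of 27025 genes. CACGTG was in 4 of the 40 (10%), namely Psma4, Psmb10, Psmd9 and Psme3, against 6.86%. The interferon-stimulated core was in 3 (7.5% against 3.46%), TTCNNNGAA in 2 (5% against 8.13%) and CCAAT in 14 (35% against 37.5%). A match describes letters only and is not a binding site.

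Array medians lay between 4.79 and 4.93, and arrays of the same group had correlations of 0.989 to 0.995 across probe sets, which are not independent. Bhlhe40 itself was lower on every KO array than on the WT arrays of its set, while the LysM arrays read 8.75 and 8.83 beside 8.77 and 8.99 in IL-4c WT, so directions drawn from LysM rest on its label. All 7 LPM markers tested were higher in LPM than in AM in WT, and 5 of 6 AM markers were lower. Epcam, an epithelial gene, read 6.92 to 8.12 on the AM arrays and at most 3.52 on the naive LPM arrays. The summed B cell markers (7 genes, log2 of the summed signal) lay at 7.30 to 8.04 on naive LPM arrays, 6.87 to 6.96 on AM arrays and 6.82 to 7.04 on IL-4c arrays. Within pairs of arrays, the same array was the lower for most members: replicate 1 of AM WT was the lower of its pair for 40 of 47 members, replicate 2 of AM KO for 38, replicate 1 of IL-4c WT for 37 and replicate 2 of IL-4c KO for 33.

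Most members were among the brighter genes of every array. The median percentile of a member over the 16 arrays was highest for Psma7, at 98.9, and lowest among those tested for Psma8, the testis alpha subunit, at 49.7. Psma8 stayed between 4.61 and 5.42 and was called in no comparison. Psmd5, a chaperone of the cap's base, followed at 61.5.

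After IL-4c many proteasome genes were higher in WT LPM, and every tested beta subunit was among them. Of the 47 genes, 22 were higher after IL-4c and 0 were lower; among all tested genes 22.0% were higher and 19.2% lower, and 41.2% were called in either direction. The members' median difference was 0.38 and that of all genes 0.02. Both IL-4c arrays lay above all naive arrays for 31 members, where 34.0% of all genes did, and below them for 2, where 31.2% did. All 7 beta subunits of the standard core were called, with a median of 0.53, against 1 of the 7 alpha subunits Psma1 to Psma7, with a median of 0.18; the rings were not tested against each other. All 3 immunoproteasome subunits rose, as did 9 of 20 genes of the 19S cap, 2 of 4 core chaperones and 0 of 4 activators. In bulk RNA, fewer cells of a type and less RNA per cell cannot be told apart, here and in all comparisons that follow.

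Among the standard catalytic subunits, Psmb5, the chymotrypsin-like site, read 9.35, 9.19 and 9.31 in naive WT LPM and 10.14 and 10.35 after IL-4c, which is 1.95-fold higher (0.96 ± 0.14 SE, adjusted p = 7.1e-05). Psmb6, the caspase-like site, read 9.72, 9.54 and 9.79 before and 10.34 and 10.40 after (0.68 ± 0.13, adjusted p = 0.00074). Psmb7, the trypsin-like site, read 9.05, 9.06 and 8.98 before and 9.52 and 9.54 after (0.50 ± 0.12, adjusted p = 0.0028). For each of the 3 genes both IL-4c arrays lay above every naive array.

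Of their replacements, Psmb10 changed most in WT: its signal was 8.74, 8.66 and 8.74 in naive LPM and 9.60 and 9.95 after IL-4c, 2.09-fold higher (1.06 ± 0.17, adjusted p = 0.00013). Psmb9 read 9.79, 9.86 and 10.01 before and 10.37 and 10.75 after (0.68 ± 0.21, adjusted p = 0.017). Psmb8 read 8.48, 8.36 and 8.42 before and 8.67 and 8.97 after (0.40 ± 0.13, adjusted p = 0.018). Here too the groups did not overlap, but the second IL-4c array was the higher for all 3 genes, and without it the calls of Psmb9 (0.49, adjusted p = 0.18) and Psmb8 (0.25) were lost. The call of Psmb9 was also lost without the first naive array and that of Psmb8 without the second.

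**Figure D1:**
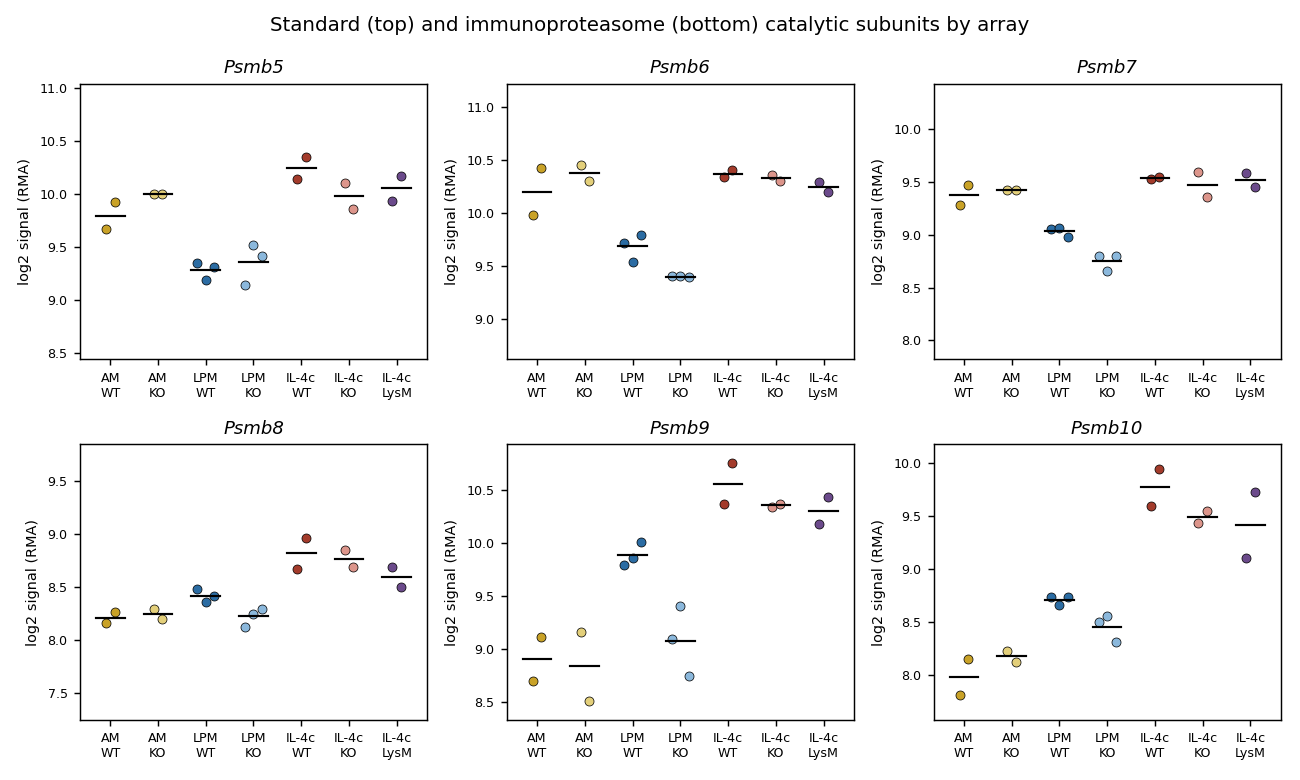
Log2 signal of the standard catalytic subunits (top) and of the immunoproteasome subunits that replace them (bottom) on each of the 16 arrays. Points are arrays and bars are group means; each panel has its own range of log2 signal on the y axis, of equal span. By group mean, Psmb5, Psmb6 and Psmb7 are lowest in naive LPM, whereas Psmb9 and Psmb10 are lowest in AM and highest after IL-4c.

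The structural beta subunits followed the same direction. Psmb3 read 9.22, 8.91 and 9.07 in naive WT LPM and 9.84 or more on both arrays after IL-4c (0.85 ± 0.13, adjusted p = 7.6e-05), and its other probe set gave 1.31. Psmb2 read 9.65, 9.50 and 9.65 before and 9.97 and 10.29 after (0.53 ± 0.15, adjusted p = 0.01). Psmb4 read 10.43, 10.36 and 10.42 before and 10.79 and 11.01 after (0.50 ± 0.17, adjusted p = 0.029). Psmb1 was the least changed of the ring, at 0.38 ± 0.12. No IL-4c array fell within the naive range for any of these genes, although the calls of Psmb1, Psmb2 and Psmb4 were lost without the second IL-4c array. The call of Psmb4 was also lost without any of the 3 naive arrays, and that of Psmb1 without the first IL-4c or the third naive array.

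In the alpha ring only Psma7 was called in WT. It read 10.68, 10.55 and 10.66 in naive LPM and 11.08 and 11.04 after IL-4c (0.43 ± 0.11, adjusted p = 0.0069). Psma3, the subunit with the lowest difference, read 10.21, 10.24 and 10.06 before and 9.97 and 10.01 after (-0.18, 95% interval -0.42 to 0.05). The remaining 5 of Psma1 to Psma7 had differences from -0.06 to 0.23. Psma5 depends on the probe set, with 0.10 from the brighter and 0.45 from the dimmer one. No source used here gives the probes' positions, so a near-identical copy of a gene cannot be told apart from the gene itself.

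Psmc1 led the ATPases of the cap. Its signal was 8.86, 8.78 and 8.79 in naive WT LPM and 9.66 and 9.91 after IL-4c, 1.97-fold higher (0.98 ± 0.14, adjusted p = 4.4e-05); its dimmer probe set gave 0.40. Psmc4 read 7.76, 7.55 and 7.77 before and 8.29 and 8.39 after (0.64 ± 0.15, adjusted p = 0.0025). Psmc5 read 9.28, 9.05 and 9.24 before and 9.59 and 9.65 after (0.43 ± 0.11, adjusted p = 0.0071). Psmc3 was also called, at 0.36, whereas Psmc2 and Psmc6 had differences of 0.01 and -0.04. Thus 4 of 6 ATPases rose and the others lay near 0.

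Of the 14 non-ATPase genes 5 rose in WT. Psmd8, a subunit of the lid, read 9.36, 9.08 and 9.30 in naive LPM and 10.17 and 10.02 after IL-4c (0.85 ± 0.17, adjusted p = 0.00077). Psmd3, another lid subunit, read 7.04, 6.70 and 7.01 before and 7.52 and 7.85 after (0.77 ± 0.15, adjusted p = 0.00062). Psmd13 read 7.31, 7.19 and 7.35 before and 7.93 and 7.99 after (0.68 ± 0.14, adjusted p = 0.00098). All 3 were separated from their naive arrays. Psmd2, the scaffold of the base, rose by 0.64 and Psmd5 by 0.40. Psmd14, the deubiquitinase of the lid, had 0.30 (95% interval -0.04 to 0.65), and Psmd4, a ubiquitin receptor, 0.18 (-0.10 to 0.45).

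The interferon-inducible activators Psme1 and Psme2 were not called in WT. Psme1 read 9.62, 9.77 and 9.85 in naive LPM and 9.78 and 9.79 after IL-4c, within the naive range (0.04, 95% interval -0.25 to 0.32). Psme2 read 8.28, 8.18 and 8.39 before and 8.48 and 8.62 after, above it (0.27, 0.02 to 0.52, adjusted p = 0.083). Psme3, the nuclear activator, had 0.18, Psme4, which is linked to histone turnover, -0.16 and the inhibitor Psmf1 0.13. Among the core chaperones, Psmg4 read 7.18, 7.12 and 6.96 before and 7.47 and 7.80 after (0.55 ± 0.15, adjusted p = 0.009). Psmg2 rose by 0.49 (adjusted p = 0.027), and Psmg1 (0.50) and Psmg3 (0.43) were not called.

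**Figure D2:**
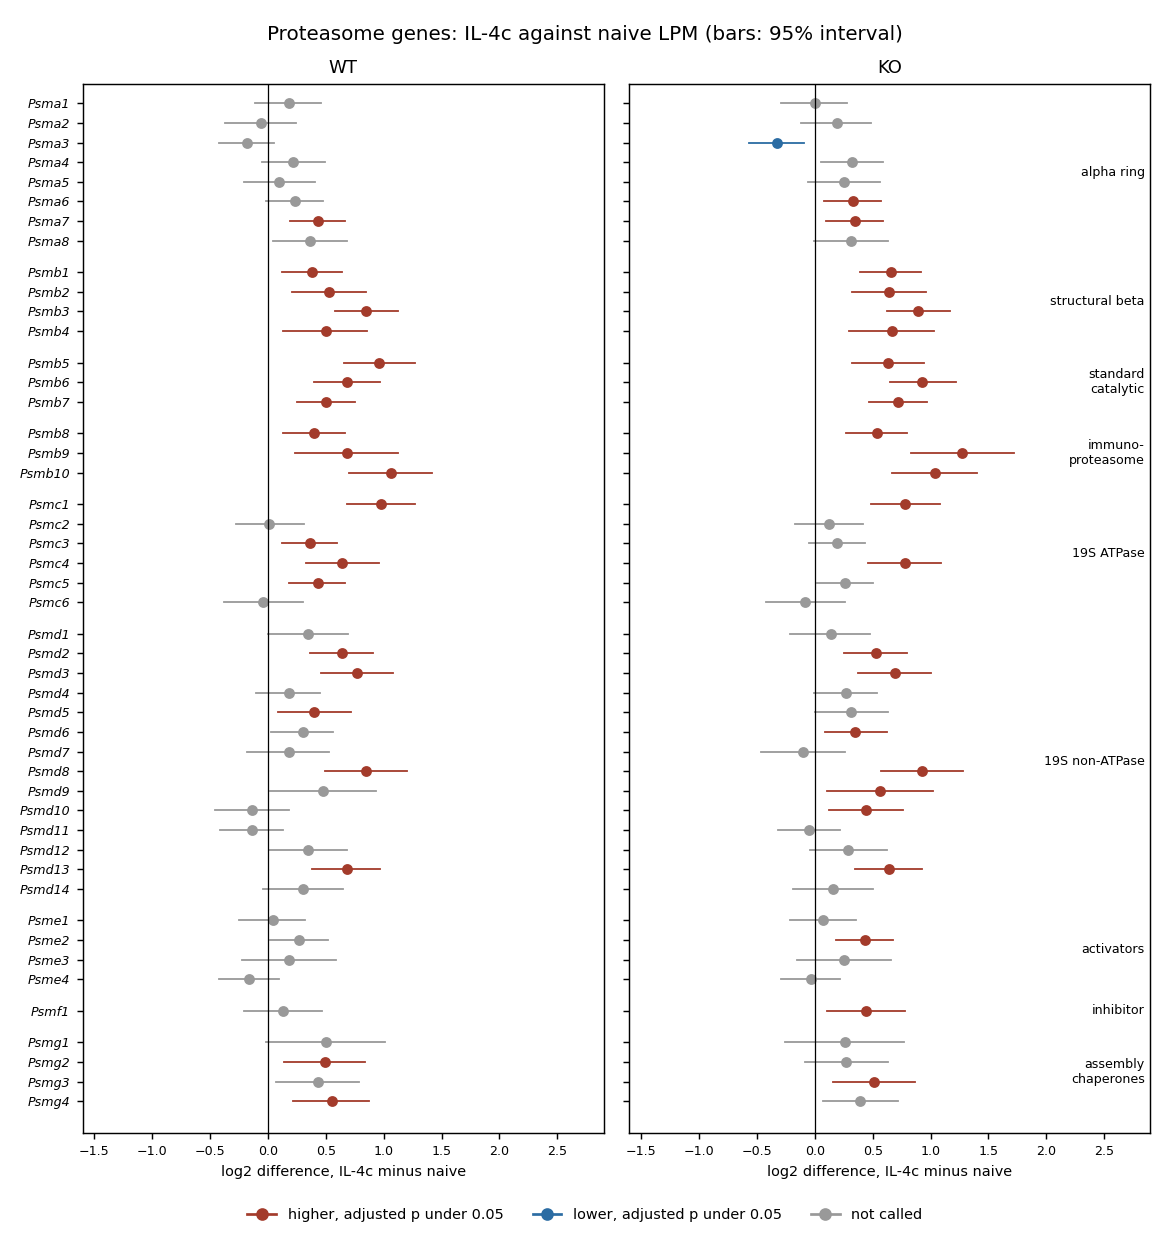
Log2 difference, IL-4c minus naive LPM, of the 47 tested proteasome genes in WT (left) and KO (right), by class. Points are limma estimates, bars are 95% intervals and colours mark calls; all 10 Psmb points lie to the right of 0 and are called in both genotypes; of Psma1 to Psma7, 1 is called in WT (Psma7, at 0.43, above the 0.38 of Psmb1), and in KO 2 are called higher and 1 lower.

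In KO LPM all 10 tested Psmb genes were again higher after IL-4c, with 9 of 20 genes of the 19S cap, 2 of 6 ATPases among them. Of the 47 genes 24 were higher and 1 was lower, with a median of 0.35 against 0.04 for all genes; 21.9% of all tested genes were higher, 15.4% lower and 37.3% called in total. The arrays separated upwards for 33 members, where 32.2% of all genes did, and downwards for 1, where 24.8% did. The WT and KO responses share no array, but the fit takes each gene's spread from all 16 arrays, so their calls are not independent. The genes higher in both numbered 17 of 47, where 15.6% of all tested genes were, and include all 10 tested Psmb genes. Calls shared in the same direction made up 77.3% of the members' WT calls and 68% of their KO calls, beside 65.9% and 72.6% over all tested genes.

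Psmb9 had the largest response in KO, with 9.09, 9.40 and 8.74 in naive LPM and 10.34 and 10.37 after IL-4c, 2.42-fold higher (1.27 ± 0.21, adjusted p = 0.00025). Psmb10 read 8.50, 8.56 and 8.31 before and 9.44 and 9.55 after (1.04 ± 0.17, adjusted p = 0.00024). Psmb8 read 8.13, 8.25 and 8.30 before and 8.85 and 8.69 after (0.54 ± 0.13, adjusted p = 0.0034). The 3 naive KO arrays of Psmb9 were further apart than those of WT, and its IL-4c arrays nearly equal.

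Of the standard sites in KO, Psmb6 read 9.40, 9.40 and 9.39 in naive LPM and 10.36 and 10.30 after IL-4c (0.93 ± 0.13, adjusted p = 8.2e-05). Psmb7 read 8.80, 8.66 and 8.80 before and 9.59 and 9.35 after (0.72 ± 0.12, adjusted p = 0.00024). Psmb5 read 9.14, 9.52 and 9.42 before and 10.11 and 9.86 after (0.63 ± 0.14, adjusted p = 0.0031). No array of one condition lay within the other. Without the first IL-4c KO array the Psmb5 call was lost, at 0.50.

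Outside the catalytic sites, Psmb3 rose by 0.89 in KO, Psmb4 by 0.67 and Psmb1 by 0.66; the other probe set of Psmb3 gave 1.68. Psmc1 (8.82, 8.93 and 8.99 before, 9.85 and 9.54 after) and Psmc4 (7.33, 7.68 and 7.63 before, 8.44 and 8.21 after) were each higher by 0.78. Psmd8 went from 9.11, 9.23 and 9.44 to 10.38 and 9.99 (0.93 ± 0.17, adjusted p = 0.0005). Psmd3 rose by 0.69 and Psmd13 by 0.64.

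The alpha ring was mixed in KO. Psma7 read 10.59, 10.66 and 10.66 in naive LPM and 10.92 and 11.04 after IL-4c (0.35 ± 0.11, adjusted p = 0.027), and Psma6 was also higher, at 0.33. Psma3 was the single proteasome gene called lower in any IL-4c response, with 10.13, 10.14 and 10.14 before and 9.90 and 9.71 after (-0.33 ± 0.11, adjusted p = 0.028). Its 2 other probe sets gave -0.34 and -0.48. Each of these calls was lost when some array was left out; for Psma3 that was the second IL-4c array or the first or second naive array.

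Psme2 read 8.11, 8.12 and 8.09 in naive KO LPM and 8.57 and 8.50 after IL-4c and was higher (0.43 ± 0.12, adjusted p = 0.0098), while Psme1, with 9.44, 9.65 and 9.55 before and 9.47 and 9.77 after, was not (0.07, 95% interval -0.21 to 0.36). Psmf1 read 6.27, 6.49 and 6.46 before and 7.01 and 6.69 after (0.44 ± 0.16, adjusted p = 0.038). Psmg3 read 6.35, 6.77 and 6.61 before and 7.23 and 6.95 after (0.51 ± 0.17, adjusted p = 0.025). Without the first IL-4c KO array the calls of Psme2, Psmf1 and Psmg3 were lost, those of Psmf1 and Psmg3 also without the first naive array, and that of Psmf1 without the third. Called in KO and not in WT, these genes are not shown to differ between the genotypes: the difference between the responses was tested for each of the 47 genes and called for 0, where 0.550% of all genes were. An unadjusted p under 0.05 was reached by 1 of them, Psmd10 (0.58, adjusted p = 0.24), and the difference for Psmb9 was 0.60 (95% interval -0.04 to 1.23, adjusted p = 0.42).

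The number of IL-4c calls rests in part on single arrays. It went from 22 to 12 without the second IL-4c WT array and from 25 to 16 without the first IL-4c KO array. In WT 12 genes were called whichever array was left out (Psma7, Psmb3, Psmb5, Psmb6, Psmb7, Psmb10, Psmc1, Psmc4, Psmd2, Psmd3, Psmd8 and Psmd13), and in KO 14 were. B cell markers, 3 of 5 tested in WT and 4 of 5 in KO, were lower after IL-4c, as were 5 of 5 macrophage markers in each genotype. Among all tested genes 19.2% were lower in WT and 15.4% in KO. Of the 3 tested genes that mark monocytes, dendritic cells or the small macrophages of the peritoneum, Ccr2 was lower (-1.10 in WT, -1.68 in KO), Ccr7 was lower in WT (-0.61) and Cd209a was higher in KO (2.07). The T and NK cell gene Cd2 was lower (-0.50 and -0.62), and Cd3e, the only other tested gene of its list, was not called (-0.11 and -0.18). Of the 3 tested neutrophil genes, S100a8 was lower in WT (-1.19) and Cxcr2 higher in KO (0.44). Over whole lists, the summed log2 signal of the 7 measured monocyte and dendritic cell markers was 7.55 to 7.97 on naive LPM arrays and 7.65 to 8.40 on WT and KO IL-4c arrays, and that of the 5 neutrophil markers 7.63 to 8.02 and 6.75 to 7.66. Their part in the proteasome differences was not tested.

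Between the resident populations of WT mice, the standard catalytic subunits and the immune subunits Psmb9 and Psmb10 were called in opposite directions. In naive WT mice 6 of the 47 genes were higher and 9 lower in LPM than in AM, where 21.2% of all tested genes were higher, 17.1% lower and 38.3% called; the members' median was -0.12 and that of all genes 0.02. All 3 standard sites were lower in LPM, and 2 of 3 immunoproteasome subunits were higher. These differences share the naive LPM arrays with the IL-4c comparisons. AM came from digested tissue and LPM from lavage, so cell type and isolation cannot be told apart.

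Psmb9 read 8.70 and 9.11 in AM and 9.79, 9.86 and 10.01 in LPM of WT mice, 1.97-fold higher in LPM (0.98 ± 0.21, adjusted p = 0.0013). Psmb10 read 7.81 and 8.15 in AM and 8.74, 8.66 and 8.74 in LPM (0.73 ± 0.17, adjusted p = 0.0025). Psmb8 read 8.16 and 8.27 in AM and 8.48, 8.36 and 8.42 in LPM, without overlap but not called (0.20, 95% interval -0.06 to 0.47). The order was reversed for the standard sites. Psmb6 read 9.98 and 10.42 in AM and 9.72, 9.54 and 9.79 in LPM (-0.52 ± 0.13, adjusted p = 0.0056). Psmb5 read 9.67 and 9.93 in AM and 9.35, 9.19 and 9.31 in LPM (-0.51 ± 0.14, adjusted p = 0.0094), and Psmb7 9.28 and 9.47 against 9.05, 9.06 and 8.98 (-0.35 ± 0.12, adjusted p = 0.028). The first WT AM array was the lower for all 6 genes. Without it the call of Psmb10 was lost (0.57), and without the second AM array those of Psmb5 (-0.39), Psmb6 (-0.30) and Psmb7 (-0.25) were lost. The Psmb7 call was also lost without any of the 3 LPM arrays, after centring on the array median, with the replicate block and when only the compared arrays were fitted, 7 alternatives in all.

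Elsewhere in WT, the largest fall from AM to LPM was that of Psmd14, 1.92-fold lower in LPM (-0.94 ± 0.16, adjusted p = 0.00018). It read 8.77 and 8.99 in AM and 8.26, 7.85 and 7.71 in LPM. Psma7 was 1.53-fold higher in LPM, with 9.89 and 10.15 in AM and 10.68, 10.55 and 10.66 in LPM (0.61 ± 0.11, adjusted p = 0.00041). The chaperone Psmg4 read 6.34 and 6.56 in AM and 7.18, 7.12 and 6.96 in LPM (0.64 ± 0.15, adjusted p = 0.003). With Psmb9, these 3 genes kept their calls whichever array was left out, and each separated the tissues. Psmg1, the partner of Psmg2 in alpha ring assembly, read 5.85 and 6.45 in AM and 7.12, 7.13 and 7.11 in LPM (0.97 ± 0.24, adjusted p = 0.0043). Psma1 (-0.47), Psma4 (-0.39), Psmd4 (-0.38), Psma3 (-0.34) and Psmc5 (-0.34) were lower in LPM, and Psmb4 (0.49) was higher. Each of these calls, and that of Psmg1, was lost when some array was left out, Psmb4 without the first AM array or any LPM array. The activators were not called: Psme1 read 9.55 and 9.62 in AM and Psme2 8.20 and 8.05, with differences of 0.16 each and LPM arrays that overlapped. Without the second AM array the number of calls fell from 15 to 9.

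In KO mice 3 of the 47 genes were higher and 17 lower in LPM than in AM, where 17.3% of all genes were higher, 22.8% lower and 40.0% called. The median was -0.28 against -0.01 for all genes, and -0.16 and -0.37 after repeated quantile normalization and after centring on the array median. Without the first KO AM array 12 genes were called. The standard sites were again lower: Psmb6 read 10.45 and 10.30 in AM and 9.40, 9.40 and 9.39 in LPM, 1.96-fold lower (-0.97 ± 0.13, adjusted p = 1.8e-05). Psmb7 read 9.42 and 9.42 in AM and 8.80, 8.66 and 8.80 in LPM (-0.67 ± 0.12, adjusted p = 0.00022), and Psmb5, at 9.14, 9.52 and 9.42 in LPM, lay below both AM arrays, which were equal to 2 decimals (-0.64 ± 0.14, adjusted p = 0.0019).

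None of the 3 immunoproteasome subunits was called between the tissues in KO. Psmb9 overlapped, with 9.16 and 8.51 in AM and 9.09, 9.40 and 8.74 in LPM (0.24, 95% interval -0.20 to 0.69). Psmb10 read 8.23 and 8.13 in AM and 8.50, 8.56 and 8.31 in LPM (0.28, -0.09 to 0.64), and Psmb8 8.30 and 8.20 against 8.13, 8.25 and 8.30 (-0.02, -0.29 to 0.25). Of these, Psmb10 separated the tissues and Psmb8 did not. The test of the difference between genotypes gave -0.73 for Psmb9 (95% interval -1.37 to -0.10, unadjusted p = 0.026, adjusted p = 0.31) and -0.46 for Psmb10 (adjusted p = 0.43). It called 0 of 47 members, against 0.249% of all genes; 4 members had an unadjusted p under 0.05, namely Psmb6, Psmb9, Psmd5 and Psmd10.

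**Figure D3:**
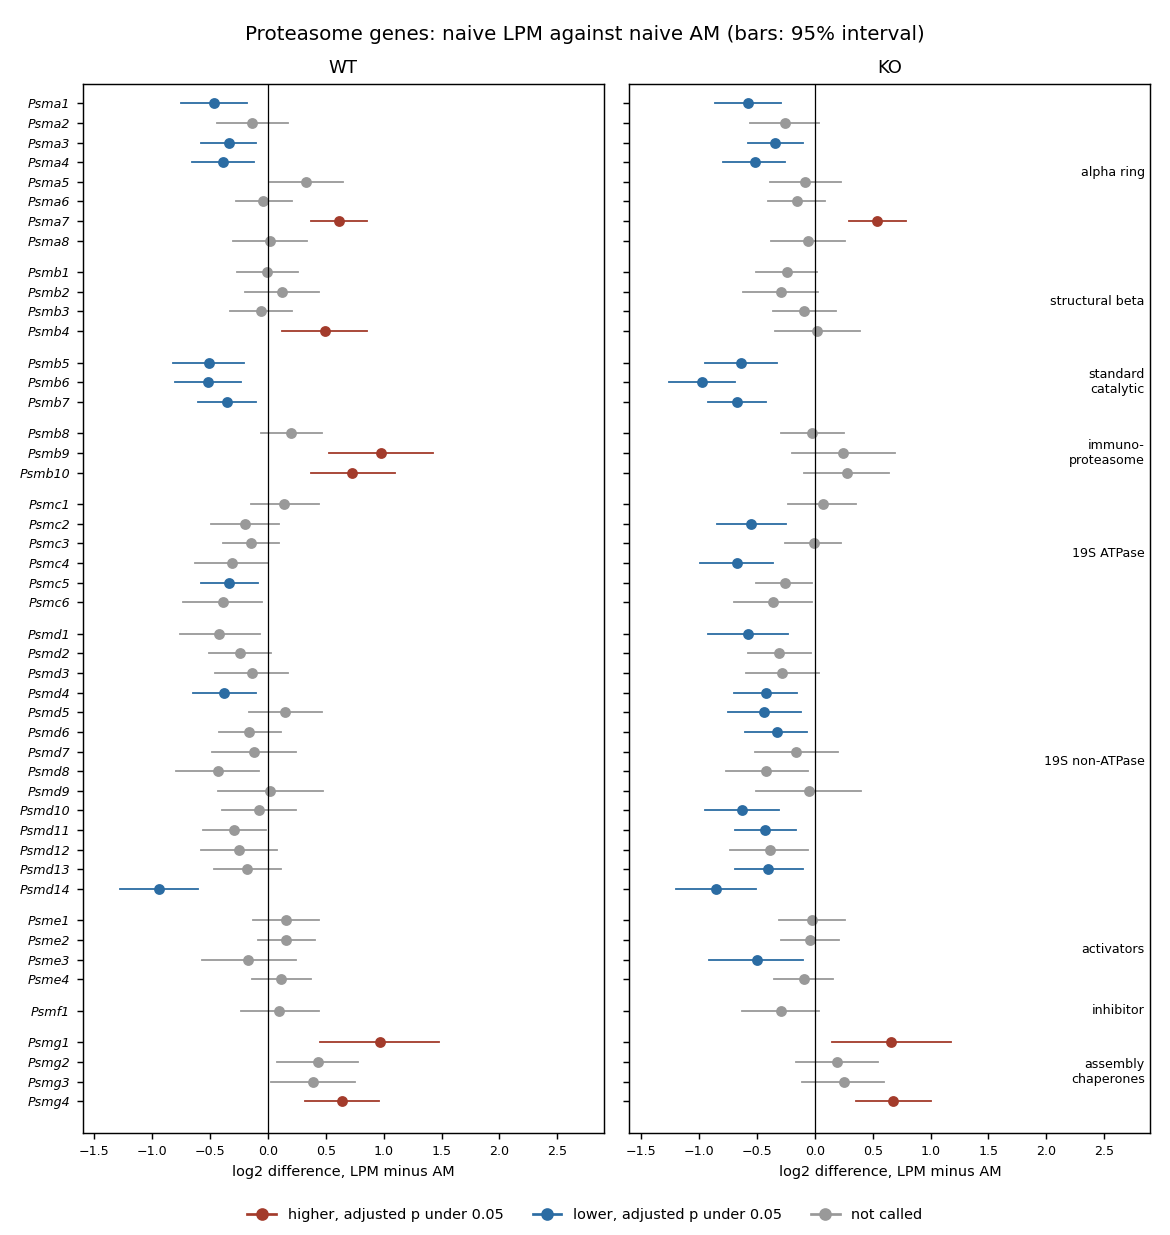
Log2 difference, naive LPM minus naive AM, of the 47 tested proteasome genes in WT (left) and KO (right), by class. Points are limma estimates, bars are 95% intervals and colours mark calls; Psmb5, Psmb6, Psmb7 and Psmd14 lie to the left of 0 and are called in both genotypes, and Psma7, Psmg1 and Psmg4 to the right.

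Of the 20 genes counted with the cap, 10 were lower in KO LPM than in KO AM, where 22.8% of all tested genes were. In WT 3 of 20 were lower, where 17.1% of all tested genes were. The test of the difference between genotypes called 0 of these 20. The chaperones Psmd5 and Psmd10 were among the 10. Psmd14 read 9.09 and 8.87 in AM and 8.18, 7.96 and 8.24 in LPM (-0.85 ± 0.16, adjusted p = 0.00045). Psmc4 read 8.35 and 8.09 in AM and 7.33, 7.68 and 7.63 in LPM (-0.67 ± 0.15, adjusted p = 0.0016). Psmd10, known as gankyrin, a chaperone of the base, read 8.24 and 7.96 in AM and 7.40, 7.56 and 7.45 in LPM (-0.63 ± 0.15, adjusted p = 0.003). All 3 were without overlap. Psmd1 (-0.58) and Psmc2 (-0.55) were also lower; among the activators Psme3 had -0.50 (adjusted p = 0.046), whereas Psme1 (-0.02) and Psme2 (-0.04) were not called. Psma7 (0.54), Psmg1 (0.66) and Psmg4 (0.68) were higher in LPM in KO as in WT. The KO call of Psmg1 was lost without the second AM array or the third LPM array, which read 7.69 beside 6.73 and 6.72. Psmb3 depended on the probe set in KO, with -0.09 from the one used and -0.51 from the dimmer one. In both genotypes 3 of the 47 were called higher and 8 lower, where 14.1% of all tested genes were higher in both and 14.9% lower. Calls shared in the same direction made up 73.3% of the members' WT calls and 55% of their KO calls, beside 75.6% and 72.3% over all tested genes. The WT and KO sets share no array but, as above, share each gene's estimate of the spread. Of the 10 cap genes lower in KO, Psmc2, Psmc4 and Psmd14 kept their calls whichever array was left out. Without the first KO AM array the calls of Psmd1, Psmd4, Psmd6, Psmd10, Psmd11 and Psmd13 were lost. That of Psme3 was lost without either KO AM array or the first or second LPM array.

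Epithelial markers, 3 of 4 in each genotype, were lower in LPM than in AM, and their summed log2 signal was 8.11 to 8.69 in AM and 5.96 to 6.46 in naive LPM. Among all tested genes, 17.1% were lower and 21.2% higher in LPM in WT, and 22.8% and 17.3% in KO. B cell markers, 3 of 5 in WT and 4 of 5 in KO, were higher in LPM. So were Ccr2 (1.02 in WT, 1.22 in KO) and, in WT, Cd209a (1.95), both of the monocyte and dendritic cell list, whose summed log2 signal was 7.02 to 7.30 in AM. The neutrophil genes Cxcr2 (-1.93 and -1.99) and, in KO, S100a9 (-1.63) were lower in LPM; the summed signal of their list was 8.16 to 8.21 in AM. Cd2, a gene of T and NK cells, read 10.97 to 11.21 in AM and 5.64 to 6.20 in naive LPM. Cd3e, the other tested gene of that list, was not called. On the AM arrays Cd3d, Cd3g, Nkg7 and Klrb1c, its untested genes, read 2.81 to 4.88. The part of such cells in the proteasome differences was not tested.

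The balance within each pair of exchangeable subunits can be followed on each array without comparing probes, as the change of the difference between the immune and the standard member. These changes are descriptions and carry no test. Psmb9 minus Psmb6 was -1.28 and -1.31 in WT AM and 0.06, 0.32 and 0.22 in WT LPM, a change of 1.50. Psmb10 minus Psmb7 was -1.47 and -1.32 in AM and -0.31, -0.40 and -0.24 in LPM, a change of 1.08. Psmb8 minus Psmb5 was -1.51 and -1.65 in AM and -0.87, -0.83 and -0.89 in LPM, a change of 0.72. In WT every LPM array lay on the immune side of both AM arrays for all 3 pairs.

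The same held in KO, where the changes from AM to LPM were 1.22 for Psmb9 minus Psmb6, 0.94 for Psmb10 minus Psmb7 and 0.62 for Psmb8 minus Psmb5. Psmb9 minus Psmb6 was -1.29 and -1.79 in KO AM and -0.31, 0.00 and -0.65 in KO LPM. The change is 0.97 without the second KO AM array and 1.47 without the first. In KO, Psmb6 differed by -0.97 and Psmb9 by 0.24 between the tissues, and in WT by -0.52 and 0.98.

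After IL-4c the pairs went different ways. In WT, Psmb8 minus Psmb5 went from -0.87, -0.83 and -0.89 to -1.47 and -1.38, a change of -0.56 towards the standard member. Psmb10 minus Psmb7 went from -0.31, -0.40 and -0.24 to 0.08 and 0.40, a change of 0.56 towards the immune member. Psmb9 minus Psmb6 stayed at 0.03 and 0.35, a change of -0.01. The first and second of these separated the conditions and the other overlapped. In KO the changes were -0.09, 0.32 and 0.34 for the Psmb8, Psmb10 and Psmb9 pairs, and the arrays overlapped in each.

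**Figure D4:**
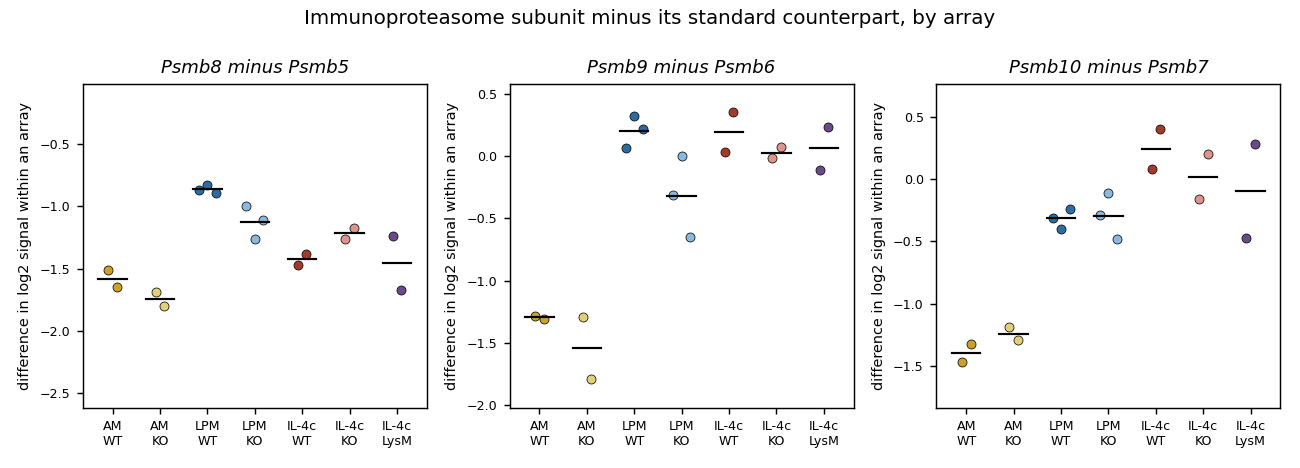
Within-array difference in log2 signal between each immunoproteasome subunit and the standard subunit it replaces, on 16 arrays. Points are arrays and bars are group means; in each panel the AM arrays lie below the naive LPM arrays of the same genotype, and after IL-4c the WT arrays are lower for Psmb8 minus Psmb5 and higher for Psmb10 minus Psmb7 than in naive WT LPM.

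Loss of Bhlhe40 in resting LPM left 1 proteasome gene called. The signal of Psmb9 was 9.79, 9.86 and 10.01 on the WT arrays; the KO arrays, at 9.09, 9.40 and 8.74, were 1.75-fold lower (-0.80 ± 0.19, adjusted p = 0.04), with every KO array below every WT array. Thus 0 of 47 were higher and 1 lower, where 1.88% of all genes were called, 0.533% higher and 1.35% lower. The same naive arrays enter the IL-4c and tissue comparisons. It was lost after repeated quantile normalization (-0.70, adjusted p = 0.074) and whenever any array but the second KO array was left out; the difference ran from -0.63 without the third KO array to -0.97 without the second, and the adjusted p from 0.035 to 0.16.

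The other catalytic subunits had smaller differences in naive LPM and were not called. Psmb6 (-0.29, adjusted p = 0.27) and Psmb7 (-0.28, adjusted p = 0.21) had all KO arrays below all WT arrays, as did Psmb8 (-0.19, adjusted p = 0.46) and Psmb10 (-0.26, adjusted p = 0.46), and Psmb5 overlapped (0.07). Besides Psmb6, Psmb7 and Psmb9, an unadjusted p under 0.05 was reached by Psmb1 (-0.29), Psmd10 (-0.44) and Psmf1 (-0.42), 6 genes in all. Psmf1 read 6.63, 6.99 and 6.85 in WT and 6.27, 6.49 and 6.46 in KO, and Psmd10 read 7.80, 7.75 and 8.17 in WT and 7.40, 7.56 and 7.45 in KO. Psmb3 and Psmc1 depended on the probe set. The brighter ones, which were used, gave 0.03 and 0.10, and the dimmer ones, not tested alone, gave -0.43 and -0.27. Genes whose KO arrays all lay below the WT arrays numbered 13, where 15.9% of all genes did, and 1 lay above, where 7.06% did. The members' median was -0.07 and became 0.01 after repeated quantile normalization and -0.11 after centring, so its direction depends on the scaling.

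Psmb9 shares its promoter region with Tap1, a subunit of the peptide transporter of MHC class I, whose start lies 225 bases away on the other strand (chromosome 17, 34187330 for Psmb9 and 34187556 for Tap1, GRCm38.p6). Tap1 read 6.31, 6.08 and 6.34 in WT and 5.91, 6.22 and 5.76 in KO, and the groups overlapped (-0.28, adjusted p = 0.44). Irf1, an interferon-responsive activator of immunoproteasome genes, read 7.38, 7.21 and 7.30 in WT and 6.74, 6.80 and 6.91 in KO (-0.48, adjusted p = 0.1). Of the pairs, Psmb9 minus Psmb6 was lower in KO by a change of -0.52 and Psmb8 minus Psmb5 by -0.26, both without overlap, and Psmb10 minus Psmb7 changed by 0.02.

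In AM no proteasome gene was called between KO and WT: 0 of 47 passed, where 0.120% of all genes did, and 1 (Psmd5, 0.35) had an unadjusted p under 0.05. Psmb9 overlapped, with 8.70 and 9.11 in WT against 9.16 and 8.51 in KO (-0.07, 95% interval -0.56 to 0.42). The difference between the tissues was not called, as given above. Psmb8 (0.04), Psmb10 (0.20), Psmb5 (0.20), Psmb6 (0.17) and Psmb7 (0.04) were not called either, and the median of -0.07 in LPM stood beside 0.06 in AM, where that of all genes was 0.05.

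After IL-4c, limma called 0 of 47 genes between KO and WT, where 3.63% of all genes were called, and 0 members had an unadjusted p under 0.05. Below 0 were 37 of the 47, with a median of -0.07 against -0.02 for all genes. Psmb9 read 10.37 and 10.75 in WT and 10.34 and 10.37 in KO (-0.21, 95% interval -0.70 to 0.28), and Psmb10 9.60 and 9.95 against 9.44 and 9.55 (-0.28, -0.68 to 0.12). In both genes the KO arrays lay below the WT arrays. Psmb5 read 10.14 and 10.35 in WT and 10.11 and 9.86 in KO (-0.26, -0.60 to 0.07). Differences of all 47 genes lay between -0.33 and 0.14.

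LysM LPM after IL-4c, which are compared with the same WT arrays, also had 0 of 47 genes called, where 8.67% of all genes were. As in KO, 37 of the 47 lay below 0, with a median of -0.13 against -0.01 for all genes, and all 8 alpha subunits were among them. An unadjusted p under 0.05 was reached by 4 genes: Psma3 (-0.29), Psma5 (-0.37), Psma7 (-0.29) and Psme1 (-0.32). Psma7 read 11.08 and 11.04 in WT and 10.72 and 10.82 in LysM, and Psme1 read 9.78 and 9.79 in WT and 9.31 and 9.62 in LysM. In 19 genes both LysM arrays lay below both WT arrays (25.4% of all genes did), and in 3 they lay above (24.2% did). The highest was Psmd8, with 10.17 and 10.02 in WT and 10.72 and 10.23 in LysM (0.38, 95% interval -0.01 to 0.77). Without the second LysM array 1 gene was called. The immunoproteasome subunits had -0.25 (Psmb9), -0.35 (Psmb10) and -0.22 (Psmb8), with overlapping arrays.

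**Figure D5:**
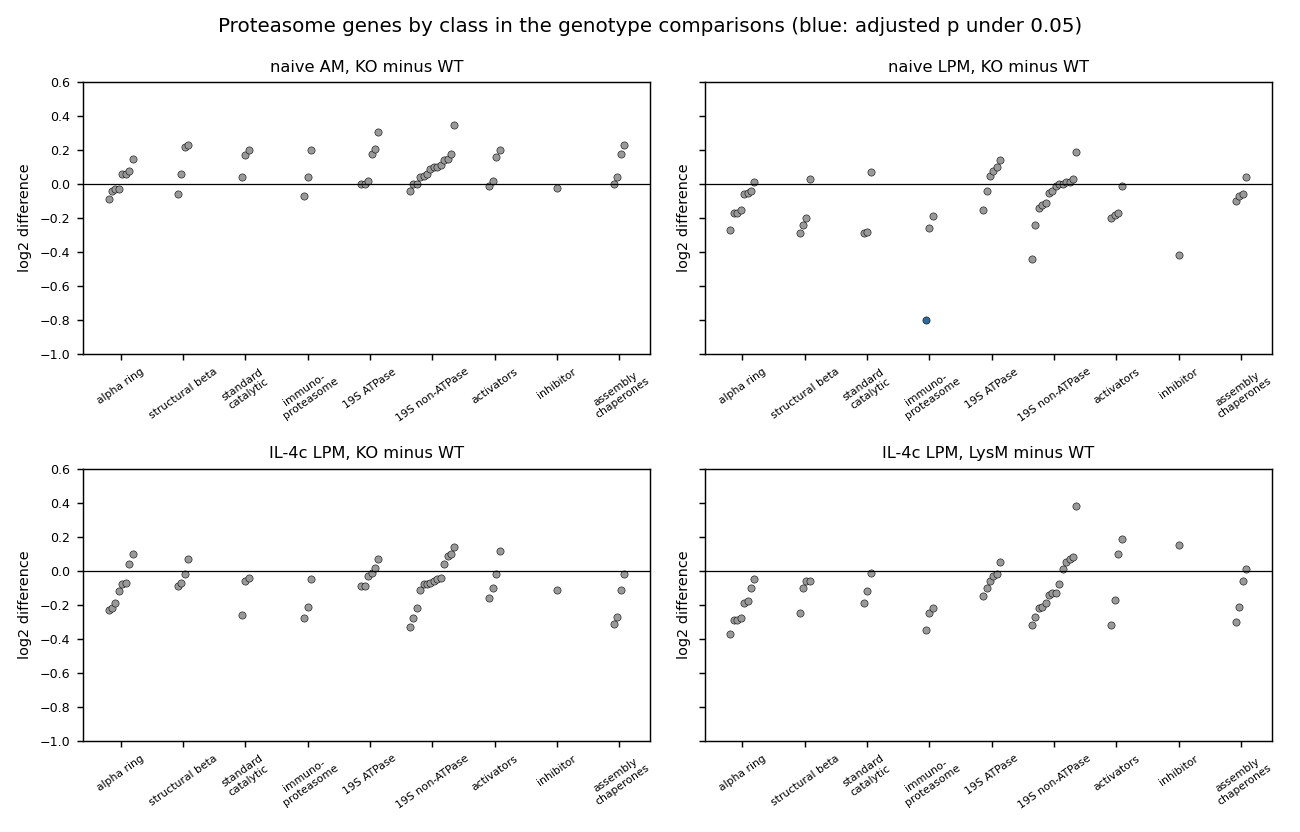
Log2 difference of each tested proteasome gene in the 4 genotype comparisons, by class. Each point is a gene; Psmb9 in naive LPM, at -0.80, is the single point with an adjusted p under 0.05 (blue), and in LysM minus WT all alpha and beta ring points of the standard core lie below 0.

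Genes that work with the proteasome were followed as listed partners and as ubiquitin and shuttle genes. Of 10 partners measured, 3 were higher and 5 lower after IL-4c in WT, and 0 and 5 in KO, with medians of -0.30 and -0.33. Beside these counts and those of the ubiquitin list, 22.0% of all tested genes were higher and 19.2% lower in WT. In KO these shares were 21.9% and 15.4%. The proteasome-bound deubiquitinases Usp14 (0.53) and Uchl5 (0.52) and the importin Ipo9 (0.75), which carries proteasomes into the nucleus, rose in WT. Zfand5, a proteasome activator, read 9.64, 9.39 and 9.31 in naive WT LPM and 7.96 and 7.87 after IL-4c (-1.53 ± 0.15, adjusted p = 1.5e-06), and -1.31 in KO. Akirin2, which binds proteasomes for nuclear import, read 7.12, 7.26 and 7.22 before and 6.19 and 6.56 after (-0.82 ± 0.13, adjusted p = 0.00015), and -0.41 in KO. Between tissues, Usp14 was lower in LPM (-1.03 in WT and -1.10 in KO), in the direction of Psmd14. Of 9 ubiquitin and shuttle genes measured, 3 rose and 1 fell after IL-4c in WT, and 4 rose and 1 fell in KO, with medians of 0.24 and 0.30 and with Ubqln4 (0.72 in WT, 0.43 in KO) among the higher and Ubqln2 (-0.50, -0.71) the lower in both.

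Genes of transcriptional control were tested for 14 members. After IL-4c in WT 0 rose and 4 fell, namely Irf1 (-1.0 ± 0.16, adjusted p = 0.0001), Irf2 (-0.69), Bach1 (-0.40) and Nfe2l2 (-0.38). In KO 1 rose (Bach1, 0.56) and 1 fell (Irf2, -0.75). The shares of all tested genes that rose and fell were 22.0% and 19.2% in WT, and 21.9% and 15.4% in KO. Nfe2l1, the factor that restores proteasome genes when the protease is blocked, was not called after IL-4c in either genotype. Between tissues in WT, Irf2 (1.83) and Irf1 (1.64) were higher in LPM and Nfe2l2 (-0.94), Mafk (-0.76), Nfyc (-0.38) and Stat3 (-0.34) lower. In KO 4 were higher and 5 lower. For all tested genes, 21.2% were higher and 17.1% lower in LPM in WT, and 17.3% and 22.8% in KO. Bach1, a repressor that competes for antioxidant response elements, was higher after IL-4c in KO (1.04 ± 0.14, adjusted p = 0.00046) and in LysM (0.90) than in WT, and Irf1 was higher in LysM (0.80).

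MHC class I genes were tested for 10 members. Between the tissues in WT, Tapbp (0.69), Tap1 (0.66) and Tapbpl (0.61), which load peptides, were higher in LPM, along with Psmb9 and Psmb10, and 0 were lower; in KO Tapbp (0.37) alone was called. After IL-4c in WT 1 rose (Calr, 0.38) and 2 fell (B2m, -0.60, and Canx, -0.31). In KO 4 rose, of which Calr and Hspa5 (each 0.69) are chaperones of the endoplasmic reticulum, Tap1 had 0.52 and Tapbp 0.46, and B2m fell (-0.41). Among all tested genes, 21.2% were higher and 17.1% lower in LPM than in AM in WT, and 17.3% and 22.8% in KO. The shares that rose and fell after IL-4c were 22.0% and 19.2% in WT, and 21.9% and 15.4% in KO.

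Of the genes matched by letters alone, Psmc3ip read 5.07, 5.20 and 4.63 in naive WT LPM and 6.44 and 6.90 after IL-4c, 3.25-fold higher (1.70 ± 0.20, adjusted p = 7e-06). In KO it read 5.29, 5.0 and 5.03 before and 6.10 and 6.09 after (0.99 ± 0.20, adjusted p = 0.0011). The test of the difference between the responses did not call it (-0.71, 95% interval -1.31 to -0.11, adjusted p = 0.29). Psme3ip1 rose by 0.33 in WT (adjusted p = 0.044) and had 0.25 in KO.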

How the data were processed

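The authors deposited log2 signals of 30177 probe sets on 16 arrays, between 1.04 and 13.84. Per the submitters' processing notes, RMA produced them; no source used here gives its version or the set of arrays that entered it together. RMA equalises the distributions of arrays, so a change of total RNA per cell leaves no trace. Groups and replicate numbers came from the titles. A single gene symbol belonged to 21789 of them, several to 1621 and none to 6767. Only the first kind was used, and 1 probe set of Psme2 and a near copy was thus left out. Of the first kind 21698 matched the RefSeq gene table (GRCm38.p6), and 0 symbols changed. For the 999 genes with several probe sets the brightest was used, which concerns 5 members. Genes above the array median on at least 2 arrays were tested, 11634 of 19938.

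The model was limma 3.58.1 in R 4.3.3, run with lmFit and eBayes on 7 group means of the 16 arrays. It had 9 residual degrees of freedom and 6.61 prior ones, and the median SD within groups was 0.171. Benjamini-Hochberg adjustment was done within each of 10 comparisons. The fit was tested on simulated data in which 200 of 11634 genes changed per run. Between genotypes it recovered 26.9% to 57.6% of 1.5-fold changes and 89.3% to 97.4% of 2-fold changes. Smaller differences can thus go uncalled. An interaction is the difference between 2 differences. The members and gene lists were chosen with earlier results of these data known. Shown in full are the exchangeable catalytic subunits, Psme1, Psme2 and most of the up to 3 largest called rises and falls of each class; the rest are given by counts or differences. Alternatives were a repeated quantile normalization, centring on array medians, other dim filters, averaging probe sets per gene, a variance trend on intensity with robust estimation, array weights, only the compared arrays, a replicate block and leaving out each array. Those for the pairs were chosen after seeing the data. Where a pair loses an array, the lone one is taken to spread as other groups do. Promoters were searched over the 250 bases before the start; where a gene had several windows any of them counted. Plots used matplotlib 3.10.9 under Python 3.11.15.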

Additional observations from a re-analysis of the deposited data

How the results depend on the processing

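Across all alternatives, 40 of 83 single-gene calls were kept everywhere; of 1163 refitted calls 1001 stayed past the threshold, 162 did not and 0 reversed. The call of Psmb9 between KO and WT in naive LPM was lost after repeated quantile normalization and with the replicate block, so the count of called members went from 1 to 0, and leaving out single arrays gave 0 to 1. Leaving out single arrays gave 0 to 1 for LysM against WT, 12 to 23 for IL-4c in WT, 16 to 24 for IL-4c in KO, 9 to 14 for LPM against AM in WT and 12 to 22 in KO. The change of Psmb9 minus Psmb6 from AM to LPM in KO was 0.97 to 1.47 in this way. Fewer arrays also give the fit fewer degrees of freedom.

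Over all groups together, replicate numbers gave no sign of pairing. Residuals of arrays with the same number correlated at a median of -0.00445 (-0.14 to 0.21) and those with other numbers at 0.00412. In a group of 2 arrays the residuals are exact opposites, so these 2 medians are not independent. They cannot decide whether particular groups were paired. With the replicate block 23 members were called for IL-4c in WT, 22 in KO, 12 for LPM against AM in WT and 17 in KO, and 0 in the other comparisons, KO against WT in naive LPM included. With 2 or 3 arrays per group, the number of arrays limits the precision. RMA values carry no detection calls, so how far dim members such as Psma8 lie above background is unknown.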

Other observations

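Psmb8, Psmb9 and Psmb10 rose after IL-4c in WT LPM (0.40, 0.68 and 1.06) while Irf1, a known activator of these genes, read 7.38, 7.21 and 7.30 in naive LPM and 6.37 and 6.22 after IL-4c (-1.0). Between tissues, Irf1 (1.64), Psmb9 (0.98) and Psmb10 (0.73) were all higher in WT LPM than in AM. In KO, Irf1 read 6.02 and 5.86 in AM, 6.74, 6.80 and 6.91 in naive LPM and 6.87 and 6.60 after IL-4c. There the 3 immunoproteasome subunits were not called between tissues (-0.02 to 0.28), and all 3 rose after IL-4c (0.54 to 1.27). A link to Irf1 was not tested. In each genotype the tissue and IL-4c differences share the naive LPM arrays.

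Of the alpha subunits, Psma7 was higher in LPM than in AM and higher again after IL-4c in both genotypes, and Psma3 was lower in LPM than in AM in both (-0.34 each) and had -0.18 in WT and -0.33 in KO after IL-4c. All 3 probe sets of Psma3 had differences below 0 in these 4 comparisons.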
